A study of Homo sapiens with 10 samples.

Results

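The AP-1 and immediate early genes examined here were FOS, FOSB, FOSL1, JUN, JUNB, JUND, EGR1, ATF3, IER2 and DUSP1. They were taken by name, through the symbol of the RefSeq transcript that each array probe carries. These genes and the lists below were chosen with earlier results of these data known. Their called shares beside those of all genes are therefore descriptive. These 10 genes of the 35267 gene names on the array were read by 13 of its 42405 probes, 4 for ATF3 and 1 for each of the others. The cells were MEG-01, an established human megakaryoblastic leukemia cell line used in place of megakaryocytes. They were nucleofected with 200 nM of a precursor of miR-1225-3p, a platelet miRNA, or with 200 nM of a scrambled negative control precursor, and RNA was collected after 24 hours. Each group had 5 biological replicates, and each replicate was hybridized to 1 single-colour Agilent array. The design describes them as independent experiments performed at the same time. The source label of the scrambled samples reads as untreated, whereas their titles and the methods describe transfection, which was taken as their group. All cells had been through nucleofection, no cells without it were examined here, and not every cell takes up a precursor.

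AP-1 is a dimer of basic leucine zipper proteins. JUN, JUNB and JUND can pair with each other or with the FOS proteins FOS, FOSB and FOSL1, whereas FOS proteins do not form stable dimers among themselves. Dimers bind a short palindrome, the TPA response element, and JUN pairs with ATF proteins also bind the related cyclic AMP response element. Immediate early genes are transcribed within minutes of a stimulus without new protein synthesis. This induction runs largely through MAP kinases that phosphorylate ELK1, the partner of SRF at the serum response element. The transcripts usually decay quickly. In megakaryocytic cells, sustained MAP kinase activity and AP-1 accompany maturation induced by phorbol ester.

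The transfected miRNA is shown because it is the treatment. Its mature sequence in RefSeq lies on the minus strand of GRCh38.p14 at chr16:2090195-2090216, and capitals mark the seed, bases 2 to 8.
miR-1225-3p: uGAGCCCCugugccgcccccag

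Promoters are shown for the 3 JUN genes and EGR1, since JUN and EGR1 were higher and JUNB and JUND lower after transfection. Each sequence is the 250 bases before the RefSeq start on GRCh38.p14, written 5′ to 3′ on the gene's strand. Capitals mark TGACNTCA, the cyclic AMP response element pattern with 1 free base, its core TGACG (read as CGTCA on the other strand), and the CArG box, to which SRF binds.
JUN, chr1:58784048-58784297, minus strand: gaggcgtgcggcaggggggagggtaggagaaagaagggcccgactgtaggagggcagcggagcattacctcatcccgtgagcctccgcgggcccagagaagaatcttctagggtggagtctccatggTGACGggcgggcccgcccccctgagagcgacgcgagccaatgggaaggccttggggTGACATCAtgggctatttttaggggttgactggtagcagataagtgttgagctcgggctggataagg
JUNB, chr19:12791236-12791485, plus strand: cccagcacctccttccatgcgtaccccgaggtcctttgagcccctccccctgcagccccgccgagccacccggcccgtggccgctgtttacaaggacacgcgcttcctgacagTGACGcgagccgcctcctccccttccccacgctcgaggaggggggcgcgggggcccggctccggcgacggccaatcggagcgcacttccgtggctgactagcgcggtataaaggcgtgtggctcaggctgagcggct
JUND, chr19:18281623-18281872, minus strand: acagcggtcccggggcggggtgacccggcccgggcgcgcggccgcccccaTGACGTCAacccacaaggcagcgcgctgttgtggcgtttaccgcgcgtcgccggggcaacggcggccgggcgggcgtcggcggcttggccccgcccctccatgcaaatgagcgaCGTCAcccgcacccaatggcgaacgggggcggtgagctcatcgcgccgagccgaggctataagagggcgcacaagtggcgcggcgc
EGR1, chr5:138465229-138465478, plus strand: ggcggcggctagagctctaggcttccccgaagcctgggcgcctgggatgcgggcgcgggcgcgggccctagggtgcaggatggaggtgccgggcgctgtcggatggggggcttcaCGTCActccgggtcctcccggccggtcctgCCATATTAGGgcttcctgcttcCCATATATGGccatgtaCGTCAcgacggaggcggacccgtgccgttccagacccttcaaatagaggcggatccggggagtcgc

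Motifs were searched on both strands in windows from 250 bases before to 50 bases after the start. The table of windows held 9 of the 10 genes, and FOSL1 was not matched. EGR1 had 2 CArG boxes, CCATATTAGG beginning 105 bases and CCATATATGG beginning 83 bases before its start. No other matched gene of the group had this motif in its window, and it was in 1.29% of all 35116 windows. Sites further than 250 bases before a start were not searched, so a CArG box there would be missed. JUN held TGACATCA 67 bases before its start, ATF3 held TGACATCA 123 bases before the start of 1 of its 2 windows, JUND held TGACGTCA at 200 bases and DUSP1 held TGACGTCA at 125 bases. This pattern was in 4.73% of all windows. The core TGACG, which is part of TGACGTCA, was in the windows of all 9 matched genes but ATF3, and in 24.6% of all windows. The TPA response element pattern TGANTCA was in none of the 10 windows of these genes and in 7.71% of all windows. The G+C content was 62.0% for JUN, 71.0% for JUNB, 77.0% for JUND and 69.3% for EGR1, against a median of 58.7% over all windows. These are matches of letters, and no binding was measured.

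All values below are log2 of the Agilent processed signal, normalized between arrays by cyclic loess, and a log2 fold change is the miR-1225-3p mean minus the scrambled mean. Levels of different probes are not comparable. In limma, 6093 of 17373 genes (35.1%) passed the threshold of 0.05 on the adjusted p, 17% as higher and 18.1% as lower, so a call is common in these data. Lower genes were 51.6% of the called genes here, 36.2% after subtracting each array's 75th percentile, 40.9% after quantile normalization and 86.3% with no normalization. Those scalings put the median log2 fold change of all genes at 0.16, 0.08 and -0.26, against -0.06 here. The share of spots well above background ran from 42.0% to 53.9% in the miR-1225-3p group and from 43.1% to 61.2% in the scrambled group, and 0 spots were saturated. Of 18 megakaryocytic marker genes with a probe, 10 were well above background on all arrays, among them ITGA2B, ITGB3, GATA1 and FLI1, whereas PF4 and TUBB1 were so on none. Of markers of other cell types, 1 of 5 T cell, 1 of 4 B cell, 2 of 4 monocyte, 3 of 5 epithelial and 0 of 5 fibroblast genes were well above background on all arrays. The array of miR-1225-3p replicate 5 stood apart from its group, with 59.2% of the called genes inside the range of the scrambled arrays against 1.07% to 2.77% for replicates 1 to 4. Results are therefore also given without it.

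JUNB, JUND and FOSL1 were lower and EGR1 and JUN higher in miR-1225-3p transfected cells, while FOS, FOSB, ATF3, IER2 and DUSP1 did not pass the threshold. The 3 JUN genes thus did not move together, with JUNB 3.66-fold and JUND 2.92-fold lower and JUN 1.46-fold higher. FOSL1 was 2.16-fold lower and EGR1 2.08-fold higher. These 5 of 10 genes compare with 35.1% of all genes tested. All 10 genes were well above background on all 10 arrays. The limma p-values weigh the difference of the group means against the spread between these replicates, which limma moderates over all genes.

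JUN, the founding member of AP-1 and a strong activator, had values of 9.78, 9.86, 10.05, 10.26 and 9.44 on miR-1225-3p arrays 1 to 5. The scrambled arrays 1 to 5 had 9.21, 9.37, 9.40, 9.30 and 9.39. Every miR-1225-3p array lay above every scrambled array, replicate 5 by the smallest margin. The log2 fold change was 0.55 (SE 0.16, n = 5 per group, adjusted p = 0.0274 by limma), and the exact two-sided permutation test gave p = 0.00794, the smallest it can give with 252 splits.

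JUNB, which can oppose JUN in growth control and is itself an immediate early gene, had values of 6.60, 6.13, 6.18, 5.99 and 9.09 on miR-1225-3p arrays 1 to 5. The scrambled arrays had 8.12, 8.15, 9.13, 8.77 and 9.18. Replicates 1 to 4 lay below all scrambled arrays, and replicate 5 lay within their range. The log2 fold change was -1.87 (SE 0.56, adjusted p = 0.0304 by limma; exact permutation p = 0.0317), and the means were 6.80 ± 1.30 (SD, n = 5) and 8.67 ± 0.51 (SD, n = 5).

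JUND, the JUN protein present at a steady level in many resting cells, had values of 7.42, 6.91, 7.18, 6.42 and 9.26 on miR-1225-3p arrays 1 to 5. The scrambled arrays had 8.88, 8.74, 9.23, 8.99 and 9.10. Replicate 5 was the highest of all 10 arrays, and the other 4 were the lowest. The log2 fold change was -1.55 (SE 0.44, adjusted p = 0.0273 by limma; exact permutation p = 0.0476), with a spread of 1.08 (SD, n = 5) in the miR-1225-3p group and 0.19 (SD, n = 5) in the scrambled group.

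FOSL1 encodes FRA1, a FOS protein without the transactivation domain of FOS, whose transcript is typically induced later than that of FOS. Its values were 5.71, 5.82, 6.03, 5.73 and 6.48 on miR-1225-3p arrays 1 to 5 and 7.39, 7.20, 7.23, 6.95 and 6.56 on scrambled arrays 1 to 5. The groups did not overlap, although replicate 5 of each group lay close to the other. The log2 fold change was -1.11 (SE 0.20, adjusted p = 0.0136 by limma; exact permutation p = 0.00794). FOSL1 and JUN were the 2 of 10 genes whose groups did not overlap, as was the case for 12.7% of all genes tested.

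EGR1, a zinc finger factor and a standard readout of MAP kinase signalling to SRF, had values of 11.07, 10.95, 11.09, 11.32 and 9.83 on miR-1225-3p arrays 1 to 5. The scrambled arrays had 9.58, 9.77, 9.83, 9.79 and 10.00. Replicates 1 to 4 lay above all scrambled arrays, and replicate 5 lay within their range. The log2 fold change was 1.06 (SE 0.26, adjusted p = 0.0179 by limma; exact permutation p = 0.0159). It is the gene with 2 CArG boxes in the promoter printed above.

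**Figure D1:**
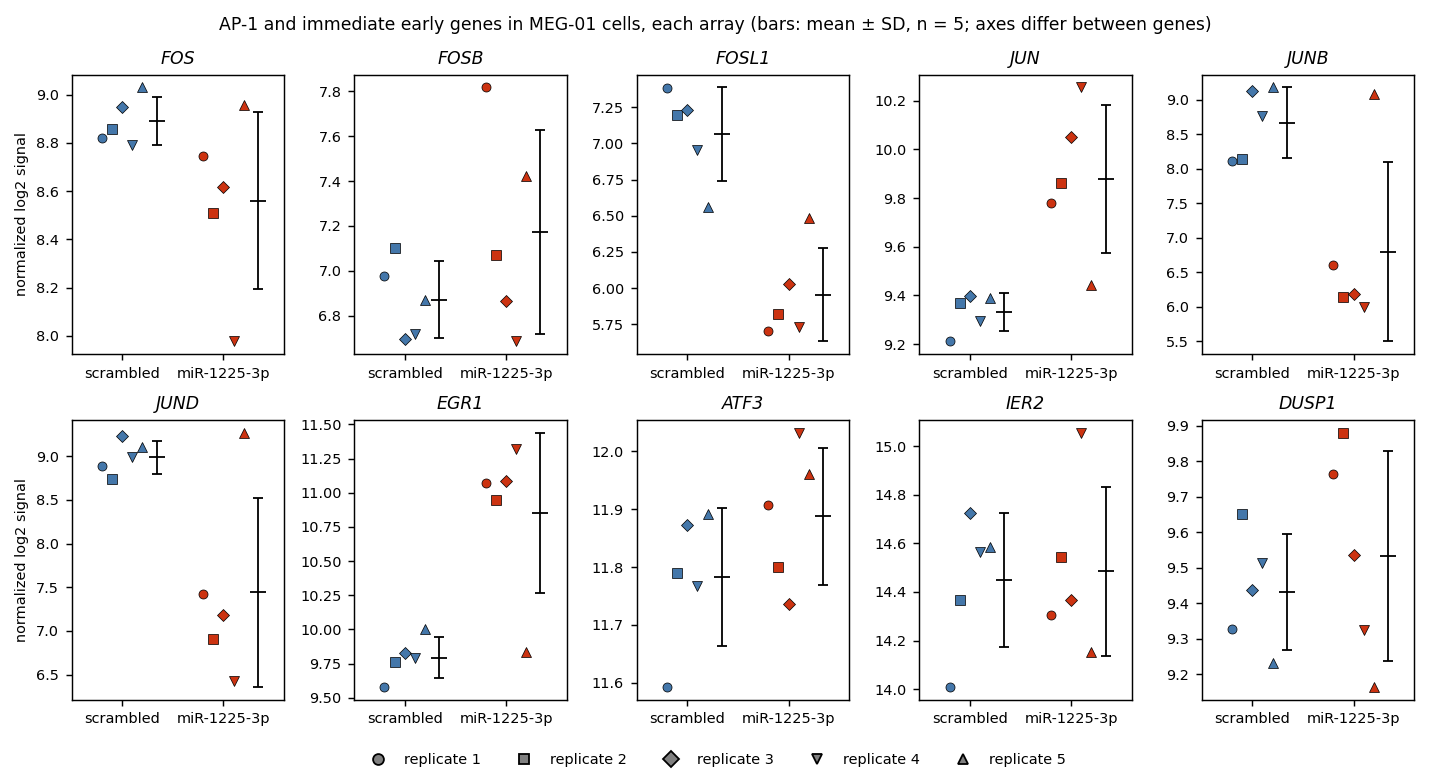
Normalized log2 signal of the 10 genes on each array, scrambled in blue and miR-1225-3p in red, with a marker shape per replicate number and the mean ± SD of 5 arrays as a bar, each panel on its own axis. JUNB, JUND and EGR1 show 4 miR-1225-3p arrays apart from the scrambled ones and replicate 5 (upward triangle) among them or beside them.

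The genes that did not pass the threshold included FOS, the prototype immediate early gene, with 7.98 to 8.96 on the miR-1225-3p arrays and 8.79 to 9.03 on the scrambled arrays. Its log2 fold change was -0.33 (95% confidence interval -0.73 to 0.07, adjusted p = 0.163 by limma). FOSB, its close relative, ranged from 6.69 to 7.82 and from 6.70 to 7.10, with a log2 fold change of 0.30 (95% confidence interval -0.18 to 0.78, adjusted p = 0.277 by limma). IER2, a nuclear protein of the immediate early response, ranged from 14.16 to 15.05 and from 14.01 to 14.72, with 0.03 (95% confidence interval -0.41 to 0.48, adjusted p = 0.896 by limma). DUSP1 encodes the phosphatase that switches off MAP kinases in the nucleus. Its probe was spotted 10 times per array and ranged from 9.16 to 9.88 and from 9.23 to 9.65, with a log2 fold change of 0.10 (95% confidence interval -0.27 to 0.47, adjusted p = 0.636 by limma). In all 4 genes the groups overlapped. The intervals come from the limma fit over probes, and the adjusted p-values from the fit over genes. The intervals leave room for changes of the size seen for JUN in FOS and FOSB.

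ATF3, a stress-induced repressor that pairs with JUN proteins, was read by 4 probes that differed. The brightest, A_23_P34915, represents the gene and lay between 11.74 and 12.03 on miR-1225-3p arrays and between 11.59 and 11.89 on scrambled arrays, with a log2 fold change of 0.10 (95% confidence interval -0.16 to 0.37, adjusted p = 0.491 by limma). A_33_P3214105 had 6.57, 6.44, 6.82, 6.28 and 7.94 on miR-1225-3p arrays 1 to 5 and 7.75, 7.64, 7.71, 7.44 and 7.84 on scrambled arrays 1 to 5. Replicates 1 to 4 lay below the scrambled arrays on this probe and replicate 5 above them. It fell by 0.87 on the log2 scale (SE 0.28, adjusted p = 0.0404 in the limma fit over 20640 probes, in which 35% passed). A_33_P3214096 differed by 0.25 on the log2 scale (adjusted p = 0.447 by limma). A_24_P33895 cleared the background on 2 of 5 arrays of miR-1225-3p transfected cells and on all 5 scrambled arrays, with -1.46 (adjusted p = 0.109 by limma). A_33_P3214105 carries a different RefSeq transcript than the other probes. A call of ATF3 therefore depends on the probe, and also on the scaling, since A_23_P34915 passed with 0.62 (adjusted p = 0.0247 by limma) after subtraction of the 75th percentile, 0.46 above the median of all genes.

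**Figure D2:**
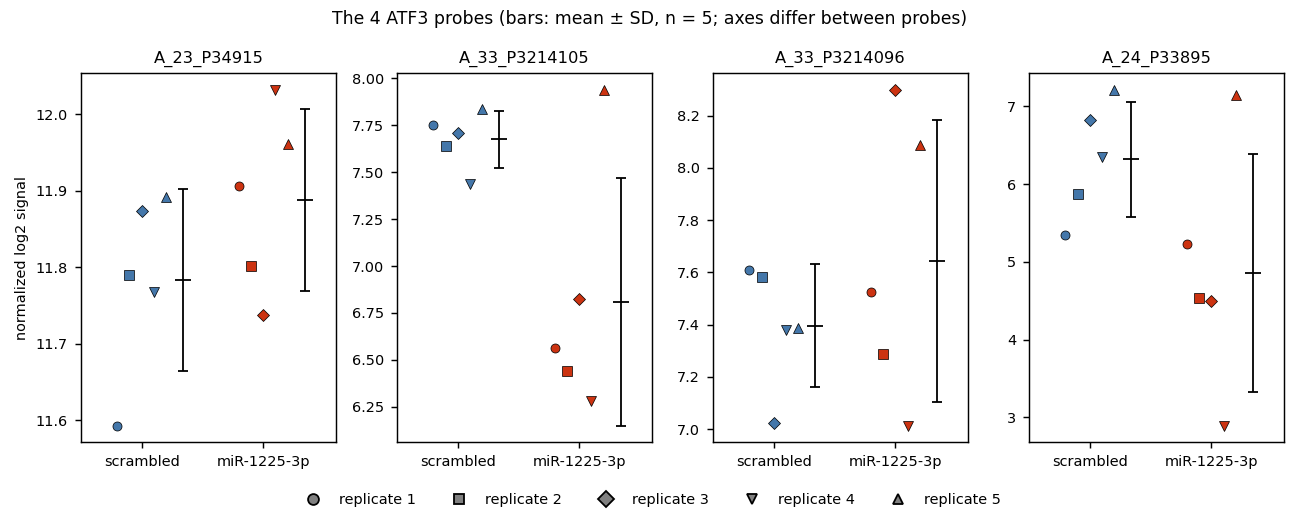
Normalized log2 signal of the 4 ATF3 probes on each array, with the mean ± SD of 5 arrays, each panel on its own axis. A_33_P3214105 and A_24_P33895 show miR-1225-3p replicates 1 to 4 below the scrambled arrays, whereas the groups overlap on A_23_P34915 and A_33_P3214096.

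When miR-1225-3p replicate 5 was left out, 6 of the 10 genes passed the threshold, beside 55.4% of all genes. The sixth was FOS, with -0.43 (adjusted p = 0.0474 by limma). The log2 fold changes moved to -2.44 for JUNB, -2.003 for JUND, 1.31 for EGR1, 0.66 for JUN and -1.24 for FOSL1. EGR1 and FOSL1 passed when any single array was left out. JUN lost its call without replicate 2, 3 or 4 of the miR-1225-3p group and without scrambled replicate 1, 2, 3 or 4 (adjusted p = 0.0520 to 0.0674 by limma). JUNB lost it without replicate 1, 2, 3 or 4 of that group and without scrambled replicate 3, 4 or 5 (adjusted p = 0.0565 to 0.0750 by limma). JUND lost it without replicate 2, 3 or 4 of that group and without scrambled replicate 1, 3 or 4 (adjusted p = 0.0525 to 0.0692 by limma). The number of called genes among the 10 was 2 when replicate 2, 3 or 4 of the miR-1225-3p group or scrambled replicate 3 or 4 was left out, and 3 when scrambled replicate 1 was. Calls fell over all genes as well, to between 2138 and 3520 of 17373 in these fits, against 6093 with all arrays.

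**Figure D3:**
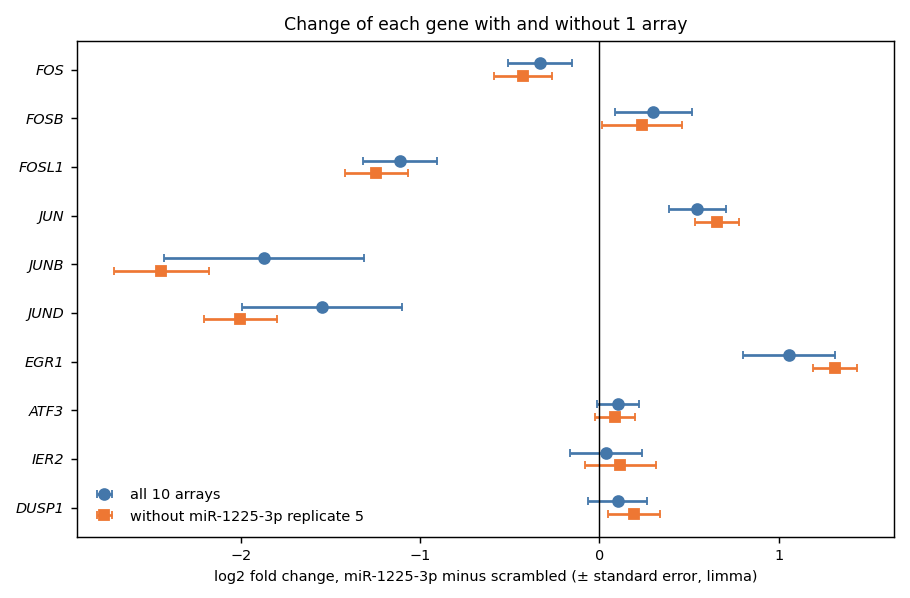
Log2 fold change of each gene with its standard error from limma, over all 10 arrays (blue circles) and with replicate 5 of the miR-1225-3p group left out (orange squares), with 0 marked by a vertical line. The points of JUNB, JUND and EGR1 lie further from 0 without that array, and those of ATF3, IER2 and DUSP1 stay within 0.20 of 0.

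The arrays lay on 2 slides, slide 1 with miR-1225-3p replicates 1 and 2 and scrambled replicates 1, 3 and 5, and slide 2 with the other arrays, replicate 5 among them. Within slide 1, FOSL1 (-1.30), JUNB (-2.44), JUND (-1.90) and EGR1 (1.21) passed, and JUN had 0.49 (adjusted p = 0.0848 by limma). Within slide 2 the log2 fold changes had the same signs, with -0.99, -1.38, -1.24 and 0.97 for these 4 genes and 0.58 for JUN, and limma called 0 of all genes there while 1220 genes, 1 of the 10 among them, had an unadjusted p under 0.05. With the slide as a block all 5 genes passed.

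Differences between 2 probes of the same array do not depend on a scaling factor between arrays. JUN minus JUNB, JUN minus JUND and EGR1 minus FOSL1 each set a gene called higher against a gene called lower. Their separation is therefore not independent of those calls. On unnormalized log2 signals, relative to the mean of the scrambled arrays, JUN minus JUNB was 2.70, 3.33, 3.45, 3.97 and -0.32 on miR-1225-3p arrays 1 to 5 and lay between -0.48 and 0.59 on scrambled arrays. JUN minus JUND was 2.15, 2.80, 2.70, 3.75 and -0.17, against -0.17 to 0.30. EGR1 minus FOSL1 was 3.02, 2.93, 2.81, 3.58 and 0.58, against -0.54 to 0.61. In each pair replicates 1 to 4 lay outside the scrambled range and replicate 5 inside it. JUNB minus JUND had a mean of -0.38 (SD 0.35, n = 5), and its range of -0.75 to 0.15 overlapped that of the scrambled arrays, -0.44 to 0.41. EGR1 minus JUN was 0.88, 0.70, 0.65, 0.71 and -0.07 on miR-1225-3p arrays 1 to 5, against -0.09 to 0.15. The direction of all 5 called genes was also the same with the 75th percentile, quantile normalization and no normalization. JUN stood 0.58 to 0.75 above the median of all genes in these, and JUNB at -1.88 to -1.74 relative to it.

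**Figure D4:**
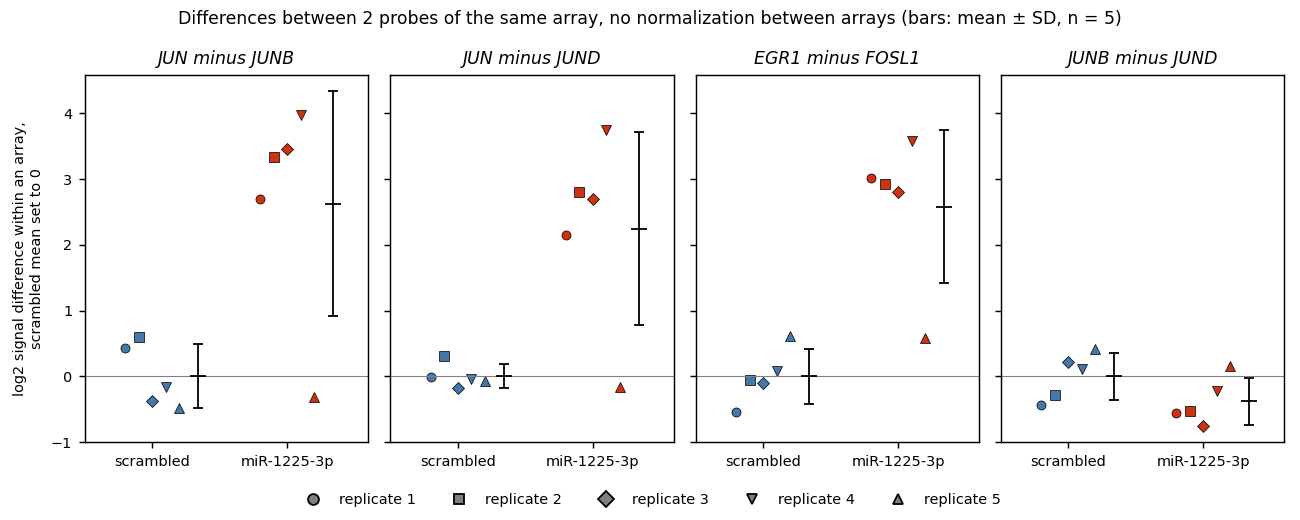
Difference of log2 signals between 2 genes on the same array, without normalization, with the scrambled mean set to 0 and the mean ± SD of 5 arrays as bars. JUN minus JUNB, JUN minus JUND and EGR1 minus FOSL1 lie above 2 on miR-1225-3p replicates 1 to 4 and near the scrambled arrays on replicate 5, and JUNB minus JUND overlaps between the groups.

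The patterns most like each gene were sought among the 11990 tested genes that cleared the background on every array with no missing value, named or not, by the root mean square difference of log2 values over the 10 arrays after centring each gene. Nearest to JUN were PSMD1 (0.051) and RNF2 (0.054), and to EGR1 CD302 (0.076) and SETDB2 (0.087). Nearest to FOSL1 were HDGF (0.13) and PLK1 (0.14), and to JUNB AKR1A1 (0.16) and MOAP1 (0.17). The pair nearest to JUND had no matched symbol. FOS was nearest to TLK2 (0.071) and PRPSAP2 (0.079), FOSB to ESYT2 (0.14) and REXO2 (0.16), and ATF3 to EPB41L4A-AS1 (0.064) and HPSE2 (0.073). IER2 was nearest to RGS19 (0.099) and SLC35E1 (0.10), and DUSP1 to WDR26 (0.096) and ZNF518B (0.10). None of these was another member of the group.

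Among the other AP-1 and bZIP partners, 3 of 18 tested genes were higher and 3 lower, with a median log2 fold change of -0.14 beside -0.06 over all genes. This is 33.3% called, close to the 35.1% of all genes. CREB1 and CREM, which bind the cyclic AMP response element, rose by 0.61 and 0.74 (adjusted p = 0.0342 and 0.0190 by limma). CREB1 did not pass with the slide as a block (0.60, adjusted p = 0.0512 by limma), or when any array but miR-1225-3p replicate 5 was left out (adjusted p = 0.0522 to 0.0739 by limma). The other probe of CREM had 0.58 (adjusted p = 0.149 by limma), and CREM lost its call without replicate 2 or 3 of the miR-1225-3p group (adjusted p = 0.0517 and 0.0504 by limma). ATF1 of the same family rose by 0.42 (adjusted p = 0.0457 by limma). MAFF, a small MAF protein without a transactivation domain, fell by 0.84 (adjusted p = 0.0161 by limma). BACH1, a heme-sensitive repressor that pairs with small MAF proteins, fell by 1.14 and its groups did not overlap (adjusted p = 0.0139 by limma). The remaining lower gene was NFE2, the megakaryocytic bZIP factor (-0.43, adjusted p = 0.0255 by limma). ATF1 and NFE2 lie outside the rule for named genes and were chosen after their values were seen. The count was 2 when replicate 2 or 3 of the miR-1225-3p group was left out, and 3 when its replicate 1 or scrambled replicate 3 or 4 was. Calls over all 17373 genes numbered 2138 to 4237 in these fits, against 6093 with all arrays. The median was 0.30 with the 75th percentile.

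Among the other immediate early genes, 5 of 39 were higher and 11 lower, which is 41.0% called beside 35.1% of all genes, with a median of -0.39. With the 75th percentile 8 were higher and 5 lower and the median was 0.05, so the balance of directions depends on the scaling. PIM1, a kinase induced by cytokines, fell by 1.56 with 14.59, 13.46, 12.49, 12.42 and 14.64 on miR-1225-3p arrays 1 to 5 against 14.88 to 15.32 on scrambled arrays (adjusted p = 0.0265 by limma). KLF6, a zinc finger factor, fell by 1.10 (adjusted p = 0.0422 by limma), and its other probe had -1.74 (adjusted p = 0.163). KLF6 did not pass with the slide as a block (-1.07, adjusted p = 0.0629 by limma) or with the 75th percentile (-0.57, adjusted p = 0.123 by limma). It also lost its call without replicate 2, 3 or 4 of the miR-1225-3p group or any scrambled array but replicate 5 (adjusted p = 0.0809 to 0.0971 by limma), and PIM1 without the same 3 replicates or scrambled replicate 1, 2 or 4 (adjusted p = 0.0535 to 0.0621 by limma). PIM1 had -0.92 with the 75th percentile (adjusted p = 0.0433 by limma). BTG2, an antiproliferative cofactor, fell by 1.05 (adjusted p = 0.0127 by limma) and did so in replicate 5 as well, with 7.62 against 8.03 to 8.64. GADD45G, a stress sensor upstream of p38 and JNK, rose by 1.02 (adjusted p = 0.0136 by limma), while its other probe had 0.07 (adjusted p = 0.912). EGR3, a relative of EGR1 that was chosen after its value was seen, had 4.85 to 7.86 on miR-1225-3p arrays and 3.23 to 4.33 on scrambled arrays. It cleared the background on all 5 of the former but on 2 of 5 of the latter, so no fold is given. The number called was 25 (64.1%) when miR-1225-3p replicate 5 was left out, in a fit that called 55.4% of all genes. It was 7 without replicate 3 and 8 without replicate 2 of that group, 10 without scrambled replicate 1, and 9 without scrambled replicate 2, 3 or 4. Over all 17373 genes these fits called 2138 to 3394, against 6093 with all arrays.

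In the MAP kinase cascade, which relays growth signals from RAS to the immediate early genes, 6 of 30 tested genes were higher and 13 lower, with a median of -0.73. With the 75th percentile 9 were higher and 11 lower and the median was -0.48. The 63.3% called compares with 35.1% of all genes. The 4 genes named by the rule were all lower, so the 6 higher genes are not described. The largest rise in the list was 0.995. MAPKAPK2, a kinase activated by p38, fell by 1.83 (adjusted p = 0.0261 by limma). HRAS fell by 1.31, with 7.90, 7.15, 7.07, 6.78 and 9.03 on miR-1225-3p arrays 1 to 5 against 8.70 to 9.05 (adjusted p = 0.0268 by limma). RPS6KA1, the ribosomal S6 kinase RSK1, fell by 1.17 with groups that did not overlap (adjusted p = 0.0171 by limma), and its other probe had -0.90 (adjusted p = 0.0839). MAP2K2, the MAP kinase kinase MEK2, also fell by 1.17 (adjusted p = 0.0285 by limma). HRAS, MAPKAPK2 and MAP2K2 each lost their call without replicate 2 or 3 of the miR-1225-3p group or scrambled replicate 1, 3 or 4, HRAS and MAP2K2 also without replicate 4 of the former, and MAP2K2 without scrambled replicate 2 or 5 (adjusted p = 0.0507 to 0.0705 by limma over all of these). ELK1, a partner of SRF that was chosen after its values were seen, cleared the background on 1 of 5 arrays of miR-1225-3p transfected cells, replicate 5, whose 8.01 lay among the scrambled values of 7.38 to 8.16. The other miR-1225-3p arrays, at 3.24 to 3.82, did not clear it, so no fold is given. These values are of A_23_P171054, the brightest of the 3 kept probes of ELK1. A_33_P3385002 cleared the background on 4 of 10 arrays and did not pass (adjusted p = 0.548 by limma). A_33_P3386099 cleared it on 6 of 10 arrays and passed as lower (adjusted p = 0.0144 by limma). The number called was 26 (86.7%) when miR-1225-3p replicate 5 was left out, in a fit that called 55.4% of all genes. It was 8 without replicate 2 or 3, 12 without replicate 1 and 11 without replicate 4 of that group, 12 without scrambled replicate 1 or 2, and 9 without scrambled replicate 3 or 4. These fits called 2138 to 4237 of all 17373 genes, against 6093 with all arrays.

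The list of MAP kinase feedback inhibitors held dual specificity phosphatases and the Sprouty and SPRED proteins. Of its 15 tested genes, 1 was higher and 8 were lower, which is 60% called beside 35.1% of all genes, with a median of -0.74. DUSP6, a cytoplasmic MAP kinase phosphatase, fell by 1.33, with 12.82, 12.80, 11.95, 12.19 and 13.12 on miR-1225-3p arrays 1 to 5 against 13.76 to 14.06 (adjusted p = 0.0136 by limma). All miR-1225-3p arrays lay below all scrambled arrays, replicate 5 included. SPRY1 fell by 1.46 with groups that did not overlap, 6.54 to 8.07 against 8.27 to 8.75 (adjusted p = 0.0136 by limma). SPRY2 fell by 0.74 (adjusted p = 0.0213 by limma) and DUSP14, another dual specificity phosphatase, by 0.54 (adjusted p = 0.0290 by limma). DUSP14 did not pass with the 75th percentile (-0.19, adjusted p = 0.426 by limma) or quantile normalization (-0.43, adjusted p = 0.0588 by limma). It also lost its call without replicate 1, 2 or 3 of the miR-1225-3p group or any scrambled array but replicate 5 (adjusted p = 0.0550 to 0.0746 by limma), and SPRY2 without replicate 2 or 3 of the miR-1225-3p group (adjusted p = 0.0571 and 0.0556 by limma). DUSP1, described above, belongs to the same family of phosphatases and did not pass. The number called was 2 when replicate 2 or 3 of the miR-1225-3p group was left out, 4 when its replicate 1 or 4 or scrambled replicate 5 was, and 3 when any other scrambled array was. In these fits 2138 to 4705 of all 17373 genes were called, against 6093 with all arrays. The number called in the list was 11 (73.3%) without miR-1225-3p replicate 5, in a fit that called 55.4% of all genes.

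Of the AP-1 target genes, 5 of 21 were higher and 7 lower, which is 57.1% called beside 35.1% of all genes, with a median of 0.05, and 9 were higher and 3 lower with the 75th percentile. PLAUR, the urokinase receptor, fell by 1.55 (adjusted p = 0.0243 by limma), with 9.95, 9.68, 9.32, 8.60 and 11.36 on miR-1225-3p arrays 1 to 5 against 10.99 to 11.68. PLAUR lost its call without replicate 2 or 3 of the miR-1225-3p group or scrambled replicate 3 or 4 (adjusted p = 0.0521 to 0.0604 by limma). TGFB1, the cytokine TGF-β1, fell by 1.21 (adjusted p = 0.0185 by limma). TIMP1, a metalloproteinase inhibitor, fell by 1.08 (adjusted p = 0.0150 by limma), but had -0.45 with the 75th percentile and did not pass there (adjusted p = 0.0805). IL11, a cytokine that stimulates platelet production, rose by 1.21 (adjusted p = 0.0154 by limma), with 6.58 to 8.08 against 6.02 to 6.67. The number called was 6 when replicate 2 or 3 of the miR-1225-3p group was left out and 7 when scrambled replicate 4 was. All genes had 2138 to 3080 calls of 17373 in these fits, against 6093 with all arrays. Of 138 listed genes, 14 with a probe had none kept and MAPK8 had no matched probe.

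**Figure D5:**
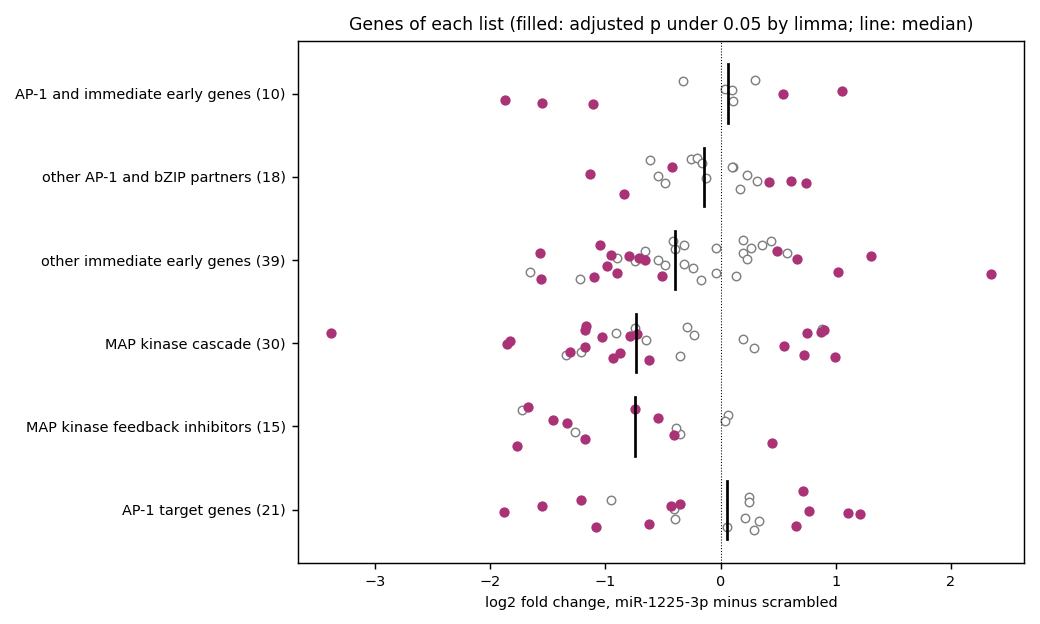
Log2 fold change of each tested gene, by list, with the number of tested genes in parentheses, filled points for genes past the threshold in limma and a line at the median. The median lies at -0.73 for the MAP kinase cascade and -0.74 for its feedback inhibitors, and at 0.07 for the AP-1 and immediate early genes, whose points spread from -1.87 to 1.06.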

How the data were processed

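RNA of 10 cultures was labelled with Cy3 and scanned. The authors deposited Feature Extraction output, whose processed signal is an intensity after background subtraction, and a table of normalized log2 values for 29271 probes. The software version in the files is 10.7.3.1. The median signal and background intensities were deposited as well.

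Here processed signals were put on the log2 scale and cyclic loess was applied (limma 3.58.1, R 4.3.3, fast method, 3 iterations). The 4259 control spots and all outlier spots were dropped, and replicate spots averaged per probe. A probe was kept if it cleared the background on 3 or more arrays in a group (20640 probes). Symbols came from RefSeq (GRCh38.p14) for 24910 of 42405 probes. The brightest kept probe represents a gene, which gave 17373 genes, 11990 with a symbol. Groups were compared with limma, Benjamini-Hochberg adjusted at 0.05, and with an exact two-sided permutation test for single genes. The fit was tested on simulated data. The members and lists were chosen with earlier results of these data known. Named genes are the members, the 4 largest called changes per list among genes clearing the background on every array, and the 2 nearest patterns per member. Alternatives covered normalization, background, filter, probe, test, slide, replicate number and each array. Samples with the same replicate number had correlations of deviations from -0.40 to 0.07. Samples with different numbers were not compared, so whether the numbers pair samples was not tested. Seed sites in transcripts were not analysed here, and a gene of the cascade list is not reported by name.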

Additional observations from a re-analysis of the deposited data

Results flagged for a closer look

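In 2 of 26 groups of 5 arrays examined, 1 array lay far from the other 4, where chance gives about 1 in 20 groups (1.3 of 26). Both values belong to miR-1225-3p replicate 5. EGR1 had 9.83 there against 10.95 to 11.32 on the other miR-1225-3p arrays. JUNB had 9.09 there against 5.99 to 6.60. In both genes the value lay within the range of the scrambled arrays.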

How the results depend on the processing

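Of 23 alternatives, EGR1 kept its call in 20, FOSL1 in 21, JUND in 12, and JUN and JUNB in 11 each, and none of these 5 genes changed direction in any. FOSL1 was at -0.55 and JUNB at -1.24 with the normexp background correction. The number called among the 10 genes was 5, 1 without normalization, 2 with dim probes kept in, 3 with the methods' t-test, 0 within slide 2, 0 with the replicate block and 2 to 6 when 1 array was left out. For the lists, in the order AP-1 and bZIP partners, other immediate early genes, MAP kinase cascade, feedback inhibitors and AP-1 targets, no normalization gave 0, 1, 2, 1 and 1 called genes, and leaving out 1 array gave 2 to 7, 7 to 25, 8 to 26, 2 to 11 and 6 to 15. Without the filter 10 other immediate early genes, 9 of the cascade and 3 inhibitors passed, and within slide 1, 9 other immediate early genes, 5 inhibitors and 7 targets. Within slide 2 and with the replicate block each list had 0 by limma. In the fit with the replicate block limma called 0 of all genes. There 7472 genes and 5 of the 10 had an unadjusted p under 0.05. Whether the numbers pair the samples was not tested. Over all genes, calls numbered 6093, and 1267 without normalization, 3411 without the filter, 4502 within slide 1 and 2138 to 9624 with 1 array left out. Among genes that were not called, the sign turned for FOSB without normalization (-0.052), for ATF3 as a mean of probes (-0.49), for DUSP1 within slide 2 (-0.24), and for IER2 with the authors' values (-0.012), within slide 1 (-0.014), and without miR-1225-3p replicate 4 (-0.11) or scrambled replicate 1 (-0.08), with -0.11 to 0.12 over all arrays left out in turn. The cause of these differences was not tested. Fewer arrays were compared within slides and with an array left out, more genes were tested without the filter, and 5 arrays per group limit the precision.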
